A study of Homo sapiens with 8 samples.

Results

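The genes described here carry out 4 routes of DNA repair in human cells: base excision repair, mismatch repair, nucleotide excision repair and non-homologous end joining. They were chosen by name, with earlier results of these data known, as 40 genes of the 58735 in the deposited table. All 40 had a row: 16 of base excision repair, 5 of mismatch repair, 12 of nucleotide excision repair and 7 of end joining. RNA sequencing gave their levels in PC3, an established human prostate cancer cell line. There were 4 libraries titled siPRMT7, whose genotype is labelled as a knockdown of the arginine methyltransferase PRMT7, and 4 titled siCtrl, labelled wild type. Per the labels, both groups received synthetic RNA by lipofection and were cultured for a further 48 h. Titles use the prefix si and library names the prefix sh, and nothing says whether replicates were separate cultures, so p-values cover only the spread between these samples. Values are FPKM (fragments scaled by gene length and library size) as the authors deposited them, and limma was run on log2(FPKM + 1) for every gene that reached 1 FPKM in 4 or more of the 8 libraries.

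Cells repair DNA by several routes that recognise different lesions. In base excision repair a glycosylase removes a damaged base, an endonuclease cuts the abasic site, and a polymerase and a ligase fill and seal the gap. Mismatch repair finds mispaired bases left by replication through MutS homologues and calls in MutL homologues to start excision. Nucleotide excision repair removes bulky lesions, such as those made by ultraviolet light, by cutting out a short stretch of the strand, and non-homologous end joining rejoins broken ends through the Ku heterodimer, the kinase DNA-PKcs and a dedicated ligase. Several of these genes, UNG and MSH6 among them, are known to be more highly expressed in cells that are copying their DNA.

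The promoters of the 4 tested members whose siPRMT7 libraries all lay below every siCtrl library (PARP1, LIG3, UNG and ERCC4) are shown, a choice made from those values. Each is the 250 bases before the RefSeq start on GRCh38.p14, 5′ to 3′ on the gene's strand: chr1:226408094-226408343 on the minus strand for PARP1, chr17:34980262-34980511 on the plus strand for LIG3, chr12:109097347-109097596 on the plus strand for UNG and chr16:13919904-13920153 on the plus strand for ERCC4. Capitals mark the Sp1 motif GGGCGG or its reverse complement.
PARP1: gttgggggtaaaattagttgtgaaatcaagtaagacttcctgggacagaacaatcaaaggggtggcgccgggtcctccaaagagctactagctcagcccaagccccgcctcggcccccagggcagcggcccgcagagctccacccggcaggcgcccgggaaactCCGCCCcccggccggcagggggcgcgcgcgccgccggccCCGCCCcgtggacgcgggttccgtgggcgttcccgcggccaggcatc
LIG3: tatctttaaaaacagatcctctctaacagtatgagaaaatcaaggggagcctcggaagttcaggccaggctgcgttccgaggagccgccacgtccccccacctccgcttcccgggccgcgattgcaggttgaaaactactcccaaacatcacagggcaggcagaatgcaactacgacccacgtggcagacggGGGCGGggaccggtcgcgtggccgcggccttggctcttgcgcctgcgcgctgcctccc
UNG: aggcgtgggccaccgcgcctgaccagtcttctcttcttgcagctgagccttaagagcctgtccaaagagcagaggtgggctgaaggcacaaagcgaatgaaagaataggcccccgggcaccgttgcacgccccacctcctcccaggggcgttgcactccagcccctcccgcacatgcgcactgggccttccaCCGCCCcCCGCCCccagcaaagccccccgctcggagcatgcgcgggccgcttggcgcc
ERCC4: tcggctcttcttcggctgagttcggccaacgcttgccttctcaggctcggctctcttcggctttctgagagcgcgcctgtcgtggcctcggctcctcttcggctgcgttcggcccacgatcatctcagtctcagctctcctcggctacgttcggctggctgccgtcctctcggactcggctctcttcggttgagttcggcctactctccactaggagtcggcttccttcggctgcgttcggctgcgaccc
Both PARP1 and UNG held 2 Sp1 motifs, LIG3 held 1 and ERCC4 held 0. RefSeq promoters matched 36 of the 40 members; NEIL2, POLB, PRKDC and XRCC5 had no entry. On either strand GGGCGG was in 25 of 36 members (69.4%), against 42.6% of all promoters (35116 windows of the same length), and CCAAT in 17 of 36 members (47.2%), against 32.0% of all promoters. One of the E2F letters TTTCGCGC, TTTGGCGC or TTTCCCGC was in 2 of 36 members (5.56%), against 2.32% of all promoters. The median GC content was 63.6% in members and 58.0% in all promoters, so base composition differs beside the GC-rich motif. Each member gave 1 window, whereas the 35116 windows were not reduced to 1 per gene, so the sets are unlike. These matches describe letters only.

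The libraries held 14526030 to 15724862 fragments. The epithelial keratin KRT8 had 53.9 to 66.8 FPKM and KRT18 49.0 to 62.0 FPKM, whereas the prostate antigen gene KLK3, which PC3 is known to lack, was listed at 0. Among markers of other cell types, PTPRC had at most 0.194 FPKM and ALB at most 0.143, while the fibroblast collagen COL1A1 had 6.13 to 7.53, COL3A1 1.70 to 2.66 and the endothelial gene PECAM1 2.83 to 3.64 FPKM, with groups that overlapped. PRMT7 itself had 4.62, 4.31, 5.01 and 4.82 FPKM in siPRMT7 replicates 1 to 4, against 5.24, 4.86, 5.10 and 5.25 FPKM in siCtrl replicates 1 to 4, a difference that did not pass an exact permutation test (two-sided p = 0.0571, smallest possible 0.0286). The library labelled siPRMT7 replicate 2 stood apart, at 28.4 on the first principal component, where the other 7 lay between -11.9 and 7.36. Gene length moved with it: relative to the siCtrl mean, the shortest tested genes (up to the first quartile, 2326 bases) had a median log2 difference of 0.18 and the longest (above the last quartile) -0.14 in that library. In siPRMT7 replicates 1, 3 and 4 those medians were 0.00029, 0.091 and 0.045 for short genes and 0.0049, -0.061 and -0.030 for long ones, and in siCtrl libraries they lay between -0.030 and 0.037 and between -0.021 and 0.022.

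No repair gene passed the test between siPRMT7 and siCtrl libraries. Of the 40 members 37 passed the filter on low values and were tested, and 0 passed a limma adjusted p of 0.05, where 0.0149% of the 13436 genes tested did. At an unadjusted limma p under 0.05 there were 5 members (13.5%), 2 higher and 3 lower in siPRMT7, against 13.2% of all genes tested (7.67% higher and 5.49% lower), a share close to the background. PARP1, UNG and PRKDC were the lower ones and MPG and ERCC1 the higher ones. The groups did not overlap for 5 members (13.5%), against 8.57% of all genes tested: PARP1, UNG, LIG3 and ERCC4 on the lower side (4.43% of all genes) and ERCC1 on the higher side (4.14%). Across the members 26 of 37 had a negative log2 fold change and the median was -0.044, beside 50.5% negative and a median of -0.00154 over all genes tested. With every library brought to one total (TPM scale) 30 of 37 were negative, on a scale whose median over all genes was -0.035. Without siPRMT7 replicate 2, 26 of 37 were negative, and 4 members had an unadjusted limma p under 0.05, beside 13.0% of all genes. Without siPRMT7 replicate 1, 22 of 37 were negative (59.5%), and with a filter of at least 5 FPKM 13 of 21 (61.9%). In RNA from a whole culture, a lower level in each cell and fewer cells at that level cannot be told apart.

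The 95% limma interval of a member had a median half-width of 0.153 on the log2(FPKM + 1) scale, where low genes' changes come out too small, and the widest was that of XPA at 0.273. Over the 37 tested members the lowest bound was -0.51, for PRKDC, and the highest 0.42, for XPA. The ratio of mean FPKM, siPRMT7 over siCtrl, ran from 0.818 for PRKDC to 1.16 for ERCC1.

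**Figure D1:**
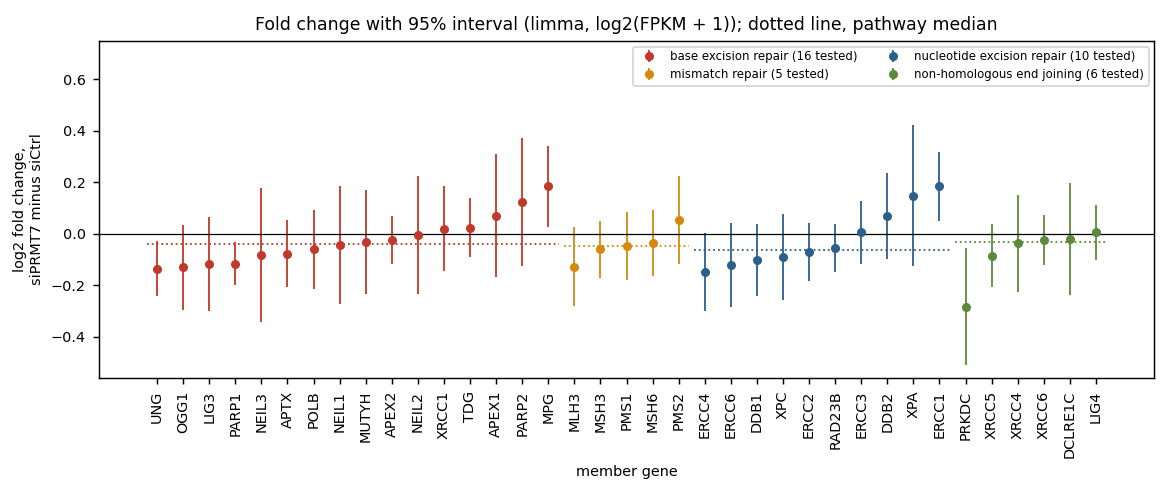
Log2 fold change (siPRMT7 minus siCtrl, log2(FPKM + 1) scale, vertical axis) with its 95% limma interval for the 37 tested members (horizontal axis), coloured by pathway, with a dotted line at each pathway's median. All 4 medians lie between -0.063 and -0.031, and PARP1, UNG, MPG, ERCC1 and PRKDC are the members whose intervals leave out 0.

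The 4 pathways lay close together. The median log2 fold change was -0.038 for base excision repair (11 of 16 members negative), -0.048 for mismatch repair (4 of 5), -0.063 for nucleotide excision repair (6 of 10) and -0.031 for end joining (5 of 6). Without siPRMT7 replicate 2 the median was -0.029 for nucleotide excision repair and -0.077 for end joining, which turned their order round. The span between the medians was smaller than the range of members within any pathway, which went from -0.14 to 0.18 in base excision repair, -0.13 to 0.053 in mismatch repair, -0.15 to 0.18 in nucleotide excision repair and -0.28 to 0.0063 in end joining. Averaged over its tested members and set against the siCtrl mean, base excision repair lay at -0.10 to 0.021 in siPRMT7 and -0.057 to 0.044 in siCtrl libraries. Mismatch repair lay at -0.059 to -0.016 in siPRMT7 and -0.095 to 0.057 in siCtrl libraries, and nucleotide excision repair at -0.055 to 0.022 in siPRMT7 and -0.021 to 0.019 in siCtrl libraries. End joining lay at -0.096 to -0.044 in siPRMT7 and -0.061 to 0.061 in siCtrl libraries. The groups overlapped in each of the 4 pathways. Averaged over all 37 tested members, the siPRMT7 libraries lay at -0.053 to -0.024 and the siCtrl libraries at -0.010 to 0.0071, without overlap. The members were chosen with earlier results of these data known, and no such mean was taken over all genes tested. How often gene sets of this size part in this way was not tested. A list of 18 replication genes, such as the MCM helicase subunits, was likewise chosen with earlier results of these data known. In that list 15 were negative (median -0.10) and 7, all lower in siPRMT7, had an unadjusted limma p under 0.05, against 5.49% of all genes tested. Its mean lay at -0.12 to -0.054 in siPRMT7 and -0.0094 to 0.016 in siCtrl libraries, and its part in the repair genes' levels was not tested.

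**Figure D2:**
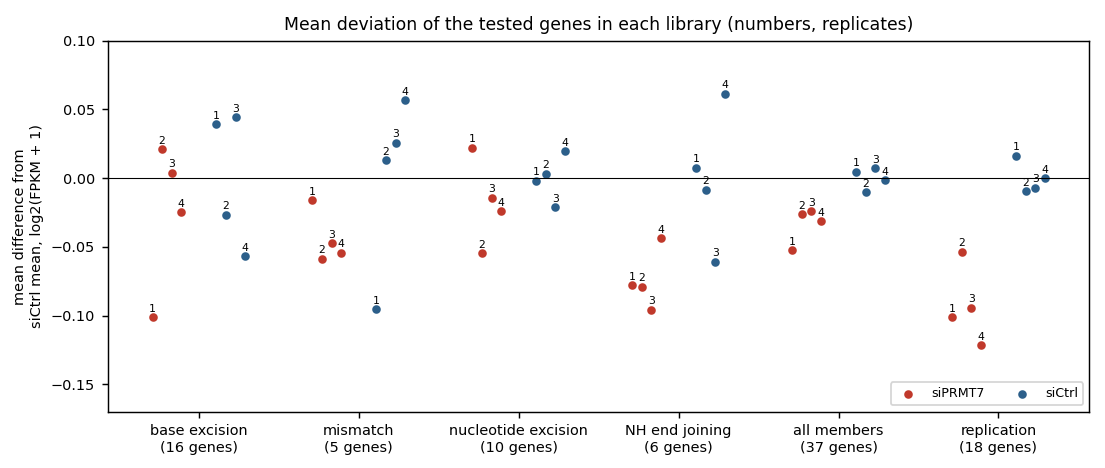
Mean difference from the siCtrl mean on the log2(FPKM + 1) scale (vertical axis) of the tested genes of each pathway, of all tested members and of the replication list (horizontal axis), one point per library with its replicate number. The groups overlap within each pathway, whereas over all members the siPRMT7 libraries lie at -0.053 to -0.024 and the siCtrl libraries at -0.010 to 0.0071. No such mean was taken over all genes tested.

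Per kilobase the most abundant member was XRCC6, which encodes the Ku70 subunit, with 84.1, 94.1, 88.5 and 88.6 FPKM in siPRMT7 replicates 1 to 4, against 90.0, 88.5, 90.5 and 92.2 FPKM in siCtrl replicates 1 to 4. The groups overlapped, and siPRMT7 replicates 1 and 2 were the lowest and the highest of the 8 libraries (log2 fold change -0.025, SE 0.0433, limma adjusted p = 0.815). Its partner XRCC5, which encodes Ku80, had 49.6 to 61.1 FPKM over the 8 libraries, with siCtrl replicate 4 the highest. At the other end NHEJ1, which encodes the ligation factor XLF, had 0.0443 to 0.382 FPKM (2 to 19 fragments), the nuclease gene ERCC5 (XPG) 0.275 to 0.424 FPKM and ERCC8, which encodes the transcription-coupled repair factor CSA, 0.591 to 1.00 FPKM. These 3 were the members that did not pass the filter, and their groups overlapped. In NHEJ1 2034 of its 3109 exonic bases are shared with another annotated gene on the same strand, for ERCC5 5213 of its 8242 exonic bases, all with the read-through gene BIVM-ERCC5, which is listed at 0 in every library, and for ERCC8 1635 of its 5448 exonic bases. The sources used here do not say how the counting treated shared bases. FPKM was scaled by the full exonic length, shared bases included. How far these 3 low values reflect the counting was not tested.

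**Figure D3:**
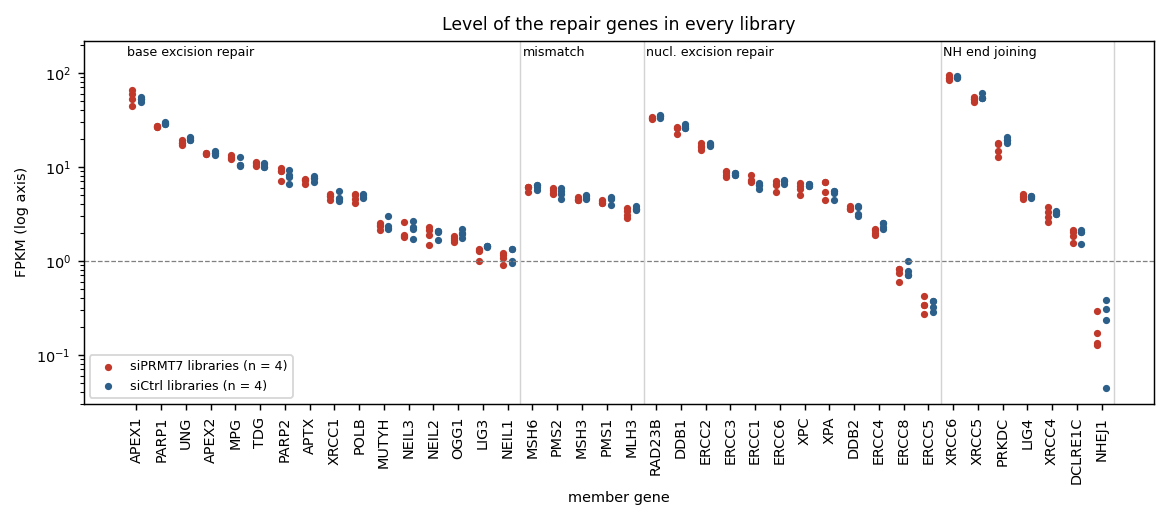
FPKM on a log axis (vertical) of all 40 members (horizontal), grouped by pathway and ordered by mean level, with 4 siPRMT7 points left of 4 siCtrl points for each gene and a dashed line at 1 FPKM. Members span 0.211 FPKM (NHEJ1) to 89.6 FPKM (XRCC6) on average. The 2 colours lie close together at most genes, whereas at NHEJ1 the siCtrl points alone run from 0.0443 to 0.382 FPKM. In NHEJ1 2034 of its 3109 exonic bases are shared with another gene.

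In base excision repair, the 8 DNA glycosylases, which each recognise their own set of damaged bases, averaged 1.12 to 19.1 FPKM, and 6 of them were on the lower side in siPRMT7. UNG (ENSG00000076248, chromosome 12, 109097574 to 109110992, plus strand, on GRCh38 as are all gene positions), which removes uracil from DNA, had 17.2, 19.5, 17.9 and 18.0 FPKM in siPRMT7 replicates 1 to 4, against 20.3, 19.5, 19.5 and 20.8 FPKM in siCtrl replicates 1 to 4. Every siPRMT7 library lay below every siCtrl library, with siPRMT7 replicate 2 only just below siCtrl replicate 2 (log2 fold change -0.14, SE 0.0469, limma adjusted p = 0.291). MPG (ENSG00000103152, chromosome 16, 77007 to 85853, plus strand), which removes alkylated purines, had 12.3, 13.2, 12.4 and 12.6 FPKM in siPRMT7 replicates 1 to 4, against 12.9, 10.5, 10.6 and 10.2 FPKM in siCtrl replicates 1 to 4. The groups overlapped because siCtrl replicate 1 lay among the siPRMT7 libraries, and the other 3 siCtrl libraries lay below all 4 siPRMT7 libraries (log2 fold change 0.18, SE 0.0700, limma adjusted p = 0.323). MPG is a short gene of 1661 bases, and with each library's trend on gene length removed its log2 fold change was 0.10 (limma adjusted p = 0.562). For MPG 453 of these bases also lie in NPRL3 on the opposite strand, which had 9.18 ± 0.127 FPKM in siPRMT7 and 8.92 ± 0.260 FPKM in siCtrl libraries (mean and SD, n = 4 each). UNG shares no exonic base with another gene, and its value without the length trend was -0.20 (limma adjusted p = 0.110).

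The other 6 glycosylases had groups that overlapped and a limma adjusted p of at least 0.457. TDG, which acts on thymine mispaired with guanine and on oxidised forms of methylcytosine, had 10.0 to 11.2 FPKM (log2 fold change 0.023). OGG1 and MUTYH, which deal with oxidised guanine and with adenine paired to it, had 1.57 to 2.19 and 2.11 to 3.03 FPKM (-0.13 and -0.032). NEIL1, NEIL2 and NEIL3, a family that removes oxidised bases, had 0.902 to 1.35, 1.49 to 2.29 and 1.70 to 2.68 FPKM (-0.044, -0.0051 and -0.082). Between 73 and 289 fragments per library lay behind the values of these low genes. Without siPRMT7 replicate 2, the highest library of its group for NEIL3, the log2 fold change of NEIL3 was -0.17.

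Of the 2 break sensors, PARP1 had groups apart and PARP2 had groups that overlapped. PARP1 (ENSG00000143799, chromosome 1, 226360691 to 226408079, minus strand), the poly(ADP-ribose) polymerase that binds DNA strand breaks, had 26.6, 27.5, 26.5 and 27.5 FPKM in siPRMT7 replicates 1 to 4, against 28.9, 28.8, 30.3 and 29.5 FPKM in siCtrl replicates 1 to 4. The groups did not overlap, the mean was 7.98% lower in siPRMT7, and each value rested on 2851 to 3307 fragments (log2 fold change -0.12, SE 0.0366, limma adjusted p = 0.270). It shares no exonic base with another gene, and without the length trend the log2 fold change was -0.084 (limma adjusted p = 0.397). PARP2, which acts beside PARP1, had 7.07, 9.04, 9.75 and 9.06 FPKM in siPRMT7 replicates 1 to 4, against 7.85, 8.11, 9.24 and 6.56 FPKM in siCtrl replicates 1 to 4, with overlapping groups, and its log2 fold change was 0.12 (95% interval -0.13 to 0.37). The difference between PARP1 and PARP2 was not tested.

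The abasic site endonuclease APEX1 had the highest level in base excision repair, with 44.7, 65.7, 60.1 and 52.4 FPKM in siPRMT7 replicates 1 to 4, against 52.1, 52.8, 55.7 and 49.4 FPKM in siCtrl replicates 1 to 4. It varied more among siPRMT7 libraries, with a coefficient of variation of 16.4%, than among siCtrl libraries, at 4.89%, and siPRMT7 replicates 1 and 2 were the lowest and the highest of all 8 (log2 fold change 0.071, SE 0.106, limma adjusted p = 0.775). Without siPRMT7 replicate 2 its log2 fold change was -0.012. APEX2, the related nuclease, had 13.4 to 14.8 FPKM and one of the smallest spreads (log2 fold change -0.024, 95% interval -0.12 to 0.071).

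Among the genes that fill and seal the gap, LIG3 (ENSG00000005156, chromosome 17, 34980494 to 35009743, plus strand), the ligase that pairs with the scaffold XRCC1, had 1.33, 1.00, 1.32 and 1.28 FPKM in siPRMT7 replicates 1 to 4, against 1.43, 1.42, 1.39 and 1.43 FPKM in siCtrl replicates 1 to 4. The groups did not overlap and siPRMT7 replicate 2 was far below the rest, and the unadjusted limma p was above 0.05 (log2 fold change -0.12, SE 0.0801, limma adjusted p = 0.527). Without that library the log2 fold change was -0.065 and without the length trend -0.038. LIG3 is 12919 bases long, and 3934 of its 12919 exonic bases are shared, 3754 of them with RFFL on the opposite strand. XRCC1 had 4.28 to 5.54 FPKM (log2 fold change 0.020), the gap-filling polymerase POLB 4.09 to 5.16 FPKM (-0.061) and APTX, which cleans blocked ends left by failed ligation, 6.51 to 7.93 FPKM (-0.077), all with overlapping groups.

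**Figure D4:**
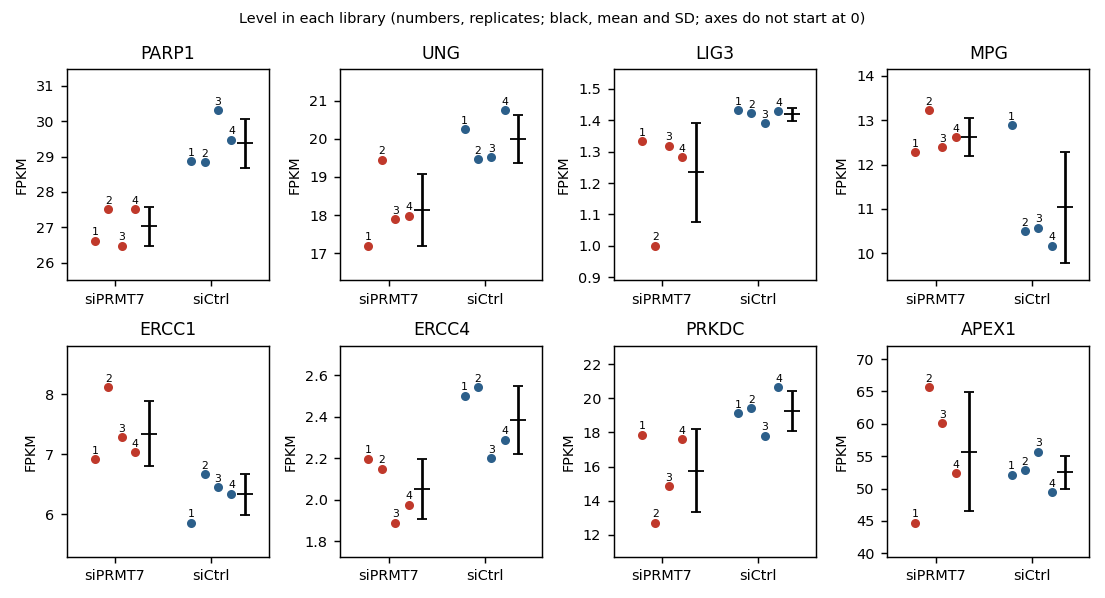
FPKM (vertical axes, which do not start at 0) of 8 members in each siPRMT7 (left) and siCtrl (right) library, numbered by replicate, with the mean and SD of each group in black. PARP1, UNG, LIG3 and ERCC4 lie below the siCtrl libraries in all 4 siPRMT7 libraries and ERCC1 above them, while MPG, PRKDC and APEX1 overlap, and siPRMT7 replicate 2 is the lowest of 8 for LIG3 and PRKDC and the highest for MPG, ERCC1 and APEX1.

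In mismatch repair no member had an unadjusted limma p under 0.05 or groups apart. The MutS homologue MSH6, the most abundant of the 5, had 6.10, 6.16, 6.15 and 5.47 FPKM in siPRMT7 replicates 1 to 4, against 5.67, 6.10, 6.37 and 6.44 FPKM in siCtrl replicates 1 to 4, and siPRMT7 replicate 4 was the lowest of all 8 libraries (log2 fold change -0.036, SE 0.0559, limma adjusted p = 0.787). MSH3, the MutS homologue for larger loops, had 4.45 to 5.08 FPKM (log2 fold change -0.061). Of the MutL homologues, MLH3 had 3.61, 3.05, 3.35 and 2.86 FPKM in siPRMT7 replicates 1 to 4, against 3.52, 3.48, 3.56 and 3.84 FPKM in siCtrl replicates 1 to 4, which overlapped because siPRMT7 replicate 1 lay within the siCtrl range (log2 fold change -0.13, SE 0.0678, limma adjusted p = 0.438). PMS1 and PMS2 had 3.97 to 4.72 and 4.61 to 6.02 FPKM (-0.048 and 0.053). PMS2 has near-identical pseudogene copies, so its counts are uncertain.

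In nucleotide excision repair the nuclease genes ERCC1 and ERCC4, whose products form one enzyme that cuts on the 5′ side of the lesion, had opposite signs, and the difference between them was not tested. ERCC1 (ENSG00000012061, chromosome 19, 45407333 to 45478828, minus strand) had 6.92, 8.12, 7.28 and 7.04 FPKM in siPRMT7 replicates 1 to 4, against 5.86, 6.67, 6.45 and 6.34 FPKM in siCtrl replicates 1 to 4. Every siPRMT7 library lay above every siCtrl library, and siPRMT7 replicate 2 was the highest (log2 fold change 0.18, SE 0.0595, limma adjusted p = 0.276). ERCC4 (ENSG00000175595, chromosome 16, 13920157 to 13952345, plus strand), which encodes XPF, had 2.20, 2.15, 1.89 and 1.97 FPKM in siPRMT7 replicates 1 to 4, against 2.50, 2.54, 2.20 and 2.29 FPKM in siCtrl replicates 1 to 4. Every siPRMT7 library lay below every siCtrl library, though siPRMT7 replicate 1 and siCtrl replicate 3 nearly touched, and the unadjusted limma p was above 0.05 (log2 fold change -0.15, SE 0.0671, limma adjusted p = 0.384). Without the length trend the log2 fold change was 0.19 for ERCC1 (limma adjusted p = 0.236) and -0.10 for ERCC4 (limma adjusted p = 0.574). In ERCC1 1593 of its 5576 exonic bases are shared with CD3EAP on the opposite strand, which had 1.23 ± 0.160 FPKM in siPRMT7 and 1.44 ± 0.272 FPKM in siCtrl libraries, and in ERCC4 2174 of its 8460 exonic bases with AC010401.1, which had at most 0.0649 FPKM in any library. The sources used here do not give the strand setting of the counting, and fragments in such overlaps cannot be assigned to one gene.

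None of the other tested members of that pathway had an unadjusted limma p under 0.05 or groups apart. RAD23B, the most abundant of them and a partner of the lesion sensor XPC, had 33.0, 32.4, 33.1 and 34.2 FPKM in siPRMT7 replicates 1 to 4, against 32.8, 34.5, 34.7 and 36.0 FPKM in siCtrl replicates 1 to 4, with overlapping groups (log2 fold change -0.055, SE 0.0406, limma adjusted p = 0.555). DDB1, the adaptor of the damage-binding ubiquitin ligase, had 26.4, 22.1, 25.7 and 25.7 FPKM in siPRMT7 replicates 1 to 4, against 25.7, 26.1, 27.1 and 28.5 FPKM in siCtrl replicates 1 to 4, with siPRMT7 replicate 2 below the other 7 libraries (log2 fold change -0.10). Its partner DDB2 had 2.98 to 3.82 FPKM (0.069) and XPC 5.08 to 6.79 FPKM (-0.089), whose lowest value was again siPRMT7 replicate 2. The helicase genes ERCC2 (XPD) and ERCC3 (XPB) of the transcription factor TFIIH had 15.3 to 18.0 and 7.75 to 9.04 FPKM (-0.070 and 0.0053). ERCC6, which encodes the transcription-coupled repair factor CSB, had 5.44 to 7.32 FPKM (-0.12). With siPRMT7 replicate 2 left out, the log2 fold change was -0.047 for DDB1, -0.023 for XPC, -0.036 for ERCC2 and -0.057 for ERCC6. With the length trend removed it was -0.016 for DDB1, -0.093 for XPC and -0.021 for ERCC6. XPA, the damage verification factor, had the largest coefficient of variation among siPRMT7 libraries of the tested members (19.6%), with 6.84, 6.86, 5.45 and 4.48 FPKM in siPRMT7 replicates 1 to 4, against 5.22, 4.43, 5.48 and 5.60 FPKM in siCtrl replicates 1 to 4. Its log2 fold change was 0.15 with a limma adjusted p of 0.590, 0.081 without siPRMT7 replicate 2 and 0.068 without the length trend.

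In end joining PRKDC had the most negative log2 fold change of the 37 tested members. PRKDC (ENSG00000253729, chromosome 8, 47773108 to 47960183, minus strand), which encodes the kinase DNA-PKcs that Ku recruits to broken ends, had 17.9, 12.7, 14.9 and 17.6 FPKM in siPRMT7 replicates 1 to 4, against 19.1, 19.4, 17.8 and 20.7 FPKM in siCtrl replicates 1 to 4. Only siPRMT7 replicate 1 reached into the siCtrl range, just above siCtrl replicate 3, and siPRMT7 replicate 2 was the lowest (log2 fold change -0.28, SE 0.101, limma adjusted p = 0.298). PRKDC is a long gene, of 15417 exonic bases. Without siPRMT7 replicate 2 its log2 fold change was -0.19 (limma adjusted p = 0.325), as it was without the length trend (-0.19, limma adjusted p = 0.232). The nuclease gene DCLRE1C (Artemis), which DNA-PKcs activates, had 1.52 to 2.11 FPKM (-0.021). LIG4, the ligase of this route, had 4.75, 5.14, 4.93 and 4.59 FPKM in siPRMT7 replicates 1 to 4, against 4.82, 4.72, 4.91 and 4.86 FPKM in siCtrl replicates 1 to 4, with overlapping groups and a 95% interval of -0.10 to 0.11 around 0.0063. Its partner XRCC4 had 2.62 to 3.73 FPKM (-0.037), where siPRMT7 replicates 1 and 2 were the lowest and the highest of 8. Leaving out siPRMT7 replicate 2 gave a log2 fold change of -0.10 for XRCC4, -0.052 for XRCC6, -0.017 for LIG4 and 0.036 for DCLRE1C.

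Several of these genes start head to head with another gene, a feature that the choice of members did not use. A protein-coding gene on the opposite strand starts within 1000 bases of 15 of the 40 members (37.5%), against 13.0% of all 19938 protein-coding genes. Of the protein-coding genes only 10934 passed the filter on low values, against 37 of the 40 members, so the sets also differ in level. In 13 pairs both genes were tested, and 9 had fold changes of the same sign. The share of same-sign pairs among all such gene pairs was not taken, so this count is a description only. The starts of PRKDC and of MCM4, a subunit of the replicative helicase, lie 2 bases apart, and MCM4, on the replication list and named here after its values were seen, had 16.0, 16.2, 15.7 and 14.8 FPKM in siPRMT7 replicates 1 to 4, against 17.8, 17.2, 17.3 and 17.5 FPKM in siCtrl replicates 1 to 4. All 4 siPRMT7 libraries of MCM4 lay below every siCtrl library (log2 fold change -0.15, SE 0.0409, limma adjusted p = 0.222), and it was the 1 neighbour with an unadjusted limma p under 0.05. APEX1 starts 86 bases from OSGEP, a tRNA modification gene, with 4.48 ± 0.220 FPKM in siPRMT7 and 4.14 ± 0.366 FPKM in siCtrl libraries (SD, n = 4 each).

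**Figure D5:**
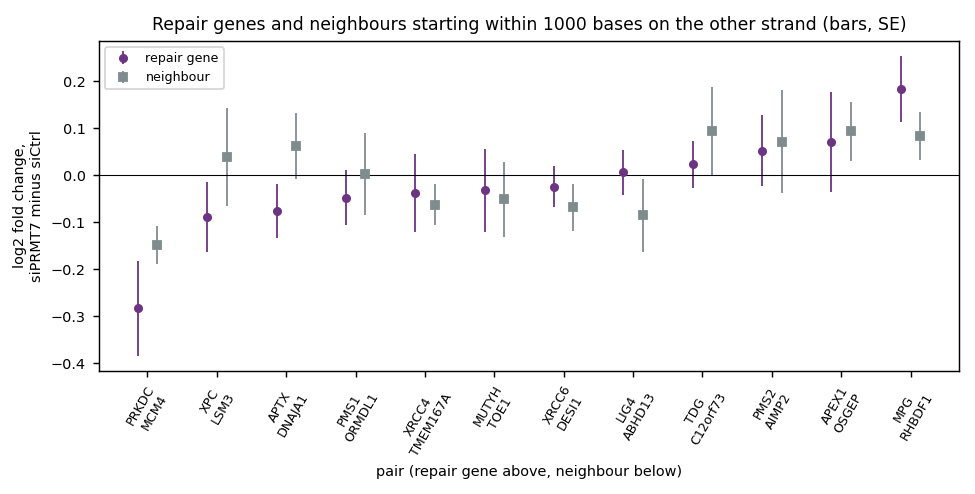
Log2 fold change (siPRMT7 minus siCtrl, log2(FPKM + 1) scale, vertical axis) with its standard error for repair genes (circles) and the gene starting within 1000 bases on the other strand (squares), ordered by the repair gene (horizontal axis). PRKDC and MCM4 are both negative, at -0.28 and -0.15, and 1 of the 13 pairs is not drawn.

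Other genes of the same 4 routes, 43 in a list chosen with earlier results of these data known, gave no call after adjustment. Of the 40 tested, 23 were on the higher and 17 on the lower side in siPRMT7 (median 0.011), and 7 had an unadjusted limma p under 0.05 (17.5%, beside 13.2% of all genes tested), 5 higher, of which 3 are described, and 2 lower. NTHL1, a glycosylase for oxidised pyrimidines, had 5.29, 6.44, 5.53 and 5.24 FPKM in siPRMT7 replicates 1 to 4, against 3.89, 4.63, 3.72 and 4.00 FPKM in siCtrl replicates 1 to 4, without overlap between groups (log2 fold change 0.39, SE 0.0770, limma adjusted p = 0.147). Its log2 fold change was the most positive of the list and larger than that of any of the 40 members. PAXX, an accessory factor of end joining, had 19.7 ± 2.93 FPKM in siPRMT7 and 15.7 ± 1.90 FPKM in siCtrl libraries (SD, n = 4 each, log2 fold change 0.30), with overlapping groups. RBX1, a subunit of cullin ubiquitin ligases, had 18.9 ± 2.94 FPKM in siPRMT7 and 15.9 ± 0.789 FPKM in siCtrl libraries (0.23), with overlapping groups, and its log2 fold change was 0.14 without siPRMT7 replicate 2. On the lower side EXO1, the exonuclease of mismatch repair, had 4.10, 3.20, 4.33 and 3.85 FPKM in siPRMT7 replicates 1 to 4, against 4.53, 4.71, 4.91 and 4.80 FPKM in siCtrl replicates 1 to 4, without overlap (log2 fold change -0.24, SE 0.0755, limma adjusted p = 0.266). RFC1, the large subunit of the clamp loader, had 12.0 ± 0.184 FPKM in siPRMT7 and 13.2 ± 0.569 FPKM in siCtrl libraries (-0.12), also without overlap. With the length trend removed these log2 fold changes were 0.32 for NTHL1, 0.22 for PAXX, 0.18 for RBX1, -0.26 for EXO1 and -0.098 for RFC1.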

How the data were processed

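The authors deposited one table of FPKM values per gene and library. Tools listed by the submitters' processing notes are cutadapt (2.5), HISAT2 (2.1.0) and featureCounts (1.6.3), beside a mouse build, which the table contradicts: all 58735 identifiers are human, and start, end and strand equal those of GENCODE release 29 (GRCh38). Library columns were mapped through the library name in the labels. FPKM times gene length gave whole multiples of one step per library for 100% of values above 0 (tolerance 0.01 fragments), so fragments could be rebuilt. Totals ran from 14526030 to 15724862 per library; depth limits the members with few fragments.

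Computed here: log2(FPKM + 1), for genes reaching 1 FPKM in 4 or more libraries (13436 genes), limma 3.58.1 with a variance trend in R 4.3.3, two-sided, Benjamini-Hochberg adjustment over all genes tested, threshold 0.05. PRMT7 had an exact permutation test. The gene test was checked on simulated data. The members and gene lists were chosen with earlier results of these data known. Members with an unadjusted p under 0.05 or groups apart, and the most abundant of each pathway, were described in full; of the other pathway genes those with an unadjusted p under 0.05, some of which are not reported here. Alternatives were another pseudocount, other filters and scalings, library weights, voom on rebuilt fragments, a replicate block and each library left out; removal of the length trend was chosen after the data were seen. Same-numbered libraries did not deviate together, with correlations of -0.0314 to 0.0613. Pairs of siPRMT7 libraries differed by a chi-square per gene of 3.03 to 22.6 and pairs of siCtrl libraries by 2.20 to 3.98, so no 2 libraries were duplicates.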

Additional observations from a re-analysis of the deposited data

Results flagged for a closer look

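In 8 of 82 groups of 4 libraries (40 members and PRMT7, each in both groups), 1 library lay far from the other 3 by Dixon's criterion, which chance meets in about 1 of 20 groups. LIG3 had 1.00 FPKM in siPRMT7 replicate 2, below the other 3 at 1.28 to 1.33 FPKM. NEIL2 had 1.65 FPKM in siCtrl replicate 2, below the other 3 at 2.02 to 2.08 FPKM. NEIL3 had 2.59 FPKM in siPRMT7 replicate 2, above the other 3 at 1.80 to 1.90 FPKM. MPG had 12.9 FPKM in siCtrl replicate 1, above the other 3 at 10.2 to 10.6 FPKM. MSH3 had 4.80 FPKM in siPRMT7 replicate 4, above the other 3 at 4.45 to 4.51 FPKM. MSH6 had 5.47 FPKM in siPRMT7 replicate 4, below the other 3 at 6.10 to 6.16 FPKM. DDB1 had 22.1 FPKM in siPRMT7 replicate 2, below the other 3 at 25.7 to 26.4 FPKM. XRCC5 had 61.1 FPKM in siCtrl replicate 4, above the other 3 at 54.0 to 54.7 FPKM. Of the libraries concerned, siPRMT7 replicate 2 came up for LIG3, NEIL3 and DDB1.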

How the results depend on the processing

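Under the 17 alternatives run, 0 members passed an adjusted p of 0.05 by limma or voom; the lowest adjusted p of any member was 0.105, for UNG with library weights. Members with an unadjusted p under 0.05 numbered 5 as reported (13.2% of all genes), 8 with voom on rebuilt fragments (14.3%), 3 with the length trend removed (12.9%) and 2 to 8 without 1 library: 8 without siPRMT7 replicate 1 (20.7%) and 2, ERCC1 and PARP1, without siCtrl replicate 4 (8.74%). Over all genes 2 were called as reported, 1 with quantile normalization, with pseudocount 0.1 or with FPKM at least 5, 5 with no filter, 3 on the TPM scale, 12 with voom, 36 with the length trend removed, 58 with library weights and 0 to 4 without 1 library (4 without siPRMT7 replicate 1; 0 without siPRMT7 replicate 3 or any 1 siCtrl library). The median of all tested members was -0.056 with pseudocount 0.1 and with voom, -0.071 on the TPM scale and -0.055 to -0.035 without 1 library. For nucleotide excision repair it was -0.10 on the TPM scale, -0.035 with library weights, -0.019 with the length trend removed and -0.074 to -0.029 without 1 library (-0.029 without siPRMT7 replicate 2). For end joining it was -0.084 with FPKM at least 5, -0.070 with quantile normalization or the length trend removed and -0.077 to -0.020 without 1 library (-0.077 without siPRMT7 replicate 2). For mismatch repair it was 0.0083 with FPKM at least 5, where fewer members were tested, and -0.080 to -0.024 without 1 library (lowest without siCtrl replicate 1, highest without siCtrl replicate 3). For base excision repair it was -0.000370 with FPKM at least 5, -0.064 on the TPM scale, -0.060 with voom and -0.056 to -0.023 without 1 library (highest without siCtrl replicate 1). Among the members described in full, the sign turned for XRCC6 without siPRMT7 replicate 1 (range without 1 library -0.052 to 0.00089). XRCC6 was -0.12 with quantile normalization and -0.065 on the TPM scale. The sign also turned for APEX1 without siPRMT7 replicate 2 (range -0.012 to 0.17) or the length trend (-0.0089). For MSH6 it turned without the length trend (0.032). Signs of the other members were not followed through every alternative. Of these, NEIL2, LIG4 and DCLRE1C turned without siPRMT7 replicate 2 (0.0015, -0.017 and 0.036). XRCC1, LIG4 and DCLRE1C turned without the length trend (-0.014, -0.0055 and 0.00017). PRMT7 had an exact permutation p of 0.0286 on the TPM scale, the smallest possible, and 0.0571 to 0.114 without 1 library. The causes of these shifts were not tested. With the replicate number as a block, 0 genes were called over all genes (1646 had an unadjusted limma p under 0.05). In that fit 5 members had an unadjusted limma p under 0.05. Whether the numbers pair the libraries is not known, since low correlations between same-numbered libraries cannot exclude it.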
